A study of Mus musculus with 9 samples.

Results

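The Hox cluster microRNAs are short regulatory RNAs transcribed from within the gene clusters that encode the Hox transcription factors. The 6 members were taken by name from the deposited count table of known microRNAs: mmu-miR-10a-5p, mmu-miR-10a-3p, mmu-miR-10b-5p, mmu-miR-10b-3p, mmu-miR-196a-5p and mmu-miR-615-3p, out of 1064 known and 1169 listed in all. Each of the 6 was measured in 9 small RNA libraries of small extracellular vesicles that a commercial exosome isolation reagent precipitated from mouse serum, and each passed the filter on low counts. There were 3 groups of 3 libraries. HFD Sirt3 AKI mice overexpressed Sirt3 in adipose tissue alone and ate a high fat diet. HFD WT mice were wild type on that diet, and chow WT mice were wild type on chow. The study title gives male mice. The sources used here do not give age, weeks of diet, the promoter behind the overexpression or whether each library came from a separate animal, so p-values measure the spread between these samples, which may be technical. The libraries of HFD WT carry the code SIRT3CKI in their names although the group is labelled wild type, and those of chow WT do not, so any difference in mouse line cannot be told apart from the diet. The HFD Sirt3 AKI libraries carry that code with the letters cr added, and what the code says of the line of either group is not stated, which limits both comparisons. Sirt3 itself, a messenger RNA, is not in a microRNA table, so the overexpression was not checked here. HFD Sirt3 AKI replicates 2 and 3 carry another batch label than the remaining libraries.

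Hox genes lay out the head-to-tail axis of the embryo, and adult cells keep the Hox code of the body region they came from. The microRNAs of these clusters are expressed with their neighbouring genes and repress Hox transcripts among other targets. In fat, miR-196a is known from mouse work as a factor that favours brown adipocyte formation by repressing Hoxc8, and miR-10b is known for its part in breast cancer metastasis in human cells. A microRNA precursor is a hairpin with a 5p and a 3p arm, of which usually 1 is loaded into the silencing complex and the other is largely degraded.

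All 6 members were found in RefSeq (build GRCm38.p6), and the sequences are shown because the results turn on pairs that differ by single bases and on the arms of 1 hairpin. Capitals mark the seed, bases 2 to 8, which chooses the targets.
miR-10a-5p: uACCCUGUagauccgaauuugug
miR-10b-5p: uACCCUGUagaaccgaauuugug
miR-10a-3p: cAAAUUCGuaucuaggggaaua
miR-10b-3p: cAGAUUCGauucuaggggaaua
miR-196a-5p: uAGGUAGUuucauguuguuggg
miR-196b-5p: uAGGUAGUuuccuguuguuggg
miR-615-3p: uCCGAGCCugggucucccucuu
Counting from the 5′ end, miR-10a-5p and miR-10b-5p share a seed and differ by the single substitution U12A. The 3p arms of these precursors differ by A3G, U9A and A10U, the first of which lies in the seed, so they form no seed family. The miR-196 pair shares a seed and differs by A12C. The sources used here do not say how many mismatches the authors' counting allowed, so reads of the single-base pairs may have been split between rows.

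The precursors lie among the Hox genes. Mir10a is on chromosome 11, where miR-10a-5p spans chr11:96317186-96317208 on the plus strand, and its 3p arm ends 1019 bases before Hoxb4. Mir10b is on chromosome 2, where miR-10b-5p spans chr2:74726074-74726096 on the plus strand, in introns of annotated Hoxd3 and Hoxd4 transcripts. The sequence of miR-196a-5p has 2 sources, Mir196a-1 at chr11:96265187-96265208, 6249 bases before Hoxb9, and Mir196a-2 at chr15:102973365-102973386, between Hoxc10 and Hoxc9, and its reads cannot be assigned to either. The sequence of miR-615-3p is at chr15:103014969-103014990, in an intron of Hoxc5. The relative miR-196b-5p, at chr6:52230129-52230150 on the minus strand, overlaps exons of noncoding Hoxa9 transcripts. It thus lies in a Hox cluster too but is not a member, so counts and sums of the members leave it out. In the hairpins of the miR-10 genes, capitals mark the mature arms, 5p first.
Mir10a (chr11:96317165-96317274): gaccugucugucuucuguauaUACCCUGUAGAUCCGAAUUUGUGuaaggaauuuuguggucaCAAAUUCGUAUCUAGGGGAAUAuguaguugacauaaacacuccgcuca
Mir10b (chr2:74726070-74726137): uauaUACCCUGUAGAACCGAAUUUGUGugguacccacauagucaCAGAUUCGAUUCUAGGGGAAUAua
The arms are 18 bases apart in Mir10a and 17 bases apart in Mir10b.

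Library totals were 1729416 to 2973432 counts in HFD Sirt3 AKI, 1953935 to 2162009 in HFD WT and 225002 to 306974 in chow WT. An equal share of counts thus rested on fewer reads in chow WT, although the members did not vary more between its libraries. Usual serum microRNAs held 21.6 to 28.5% of counts in HFD Sirt3 AKI, 27.7 to 30.7% in HFD WT and 26.2 to 27.8% in chow WT. The 6 members together held 0.734 ± 0.0356% of counts in HFD Sirt3 AKI, 0.555 ± 0.00981% in HFD WT and 1.27 ± 0.00379% in chow WT (SD, n = 3). Both miR-10 5p arms made up 98.0 to 98.9% of this in HFD Sirt3 AKI, 98.35 to 98.44% in HFD WT and 89.5 to 90.6% in chow WT. Levels are given in normalised CPM, the read count over the library total on the usual CPM scale, with totals adjusted by trimmed mean of M values (TMM) factors. The adjusted p-values are edgeR quasi-likelihood values over 414 tested microRNAs, called below 0.05. With plain library totals in place of TMM, the median change over the tested microRNAs moves by -0.725 (log2) for HFD WT over chow WT. For HFD Sirt3 AKI over HFD WT it moves by 0.293.

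The order of the members is one of read levels, since capture in a small RNA library can depend on the sequence and was not tested here. In HFD Sirt3 AKI the order was miR-10b-5p (4004 ± 333 normalised CPM), miR-10a-5p (3427 ± 269), miR-10a-3p (35.3 ± 5.66), miR-196a-5p (30.2 ± 30.1), miR-10b-3p (26.3 ± 4.60) and miR-615-3p (17.4 ± 3.67; SD, n = 3 here and in the next sentences). The 5p arms overlapped there, miR-196a-5p overlapped miR-10a-3p, miR-10b-3p and miR-615-3p, and miR-10b-3p and miR-615-3p touched at 21.7. In HFD WT it was miR-10b-5p (3748 ± 251), miR-10a-5p (3206 ± 142), miR-10a-3p (63.9 ± 15.2), miR-10b-3p (34.3 ± 2.55), miR-196a-5p (10.005 ± 4.85) and miR-615-3p (5.48 ± 1.52), and only the last pair overlapped. In chow WT it was miR-10a-5p (4706 ± 195), miR-10b-5p (4044 ± 86.7), miR-196a-5p (408 ± 4.39), miR-10a-3p (381 ± 50.1), miR-10b-3p (141 ± 6.57) and miR-615-3p (25.5 ± 4.86), and only miR-196a-5p and miR-10a-3p overlapped. Among 414 tested microRNAs miR-196a-5p ranked at place 243 in HFD Sirt3 AKI, 316 in HFD WT and 110 in chow WT, whereas miR-10b-5p stayed at places 40, 37 and 32 in the same groups.

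HFD WT was set against chow WT for the effect of the diet. Every chow WT library was shallower than every HFD WT library, so depth cannot be told apart from the diet either. Of the 6 members 5 fell and none rose, with 1 not called, at a median log2 fold change of -2.11, against 0.153 over all tested microRNAs. In the same comparison 37.7% of all tested microRNAs were called in either direction and 16.2% were called lower. With library totals all 6 members were lower, and the calls over all microRNAs were then 20 higher and 143 lower, against 89 and 67 with the trimmed mean. The decreases reached from a fold of 1.47 in miR-10a-5p to one of 39.9 in miR-196a-5p. In serum, fewer vesicles from a source tissue and fewer copies per vesicle cannot be told apart.

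**Figure D1:**
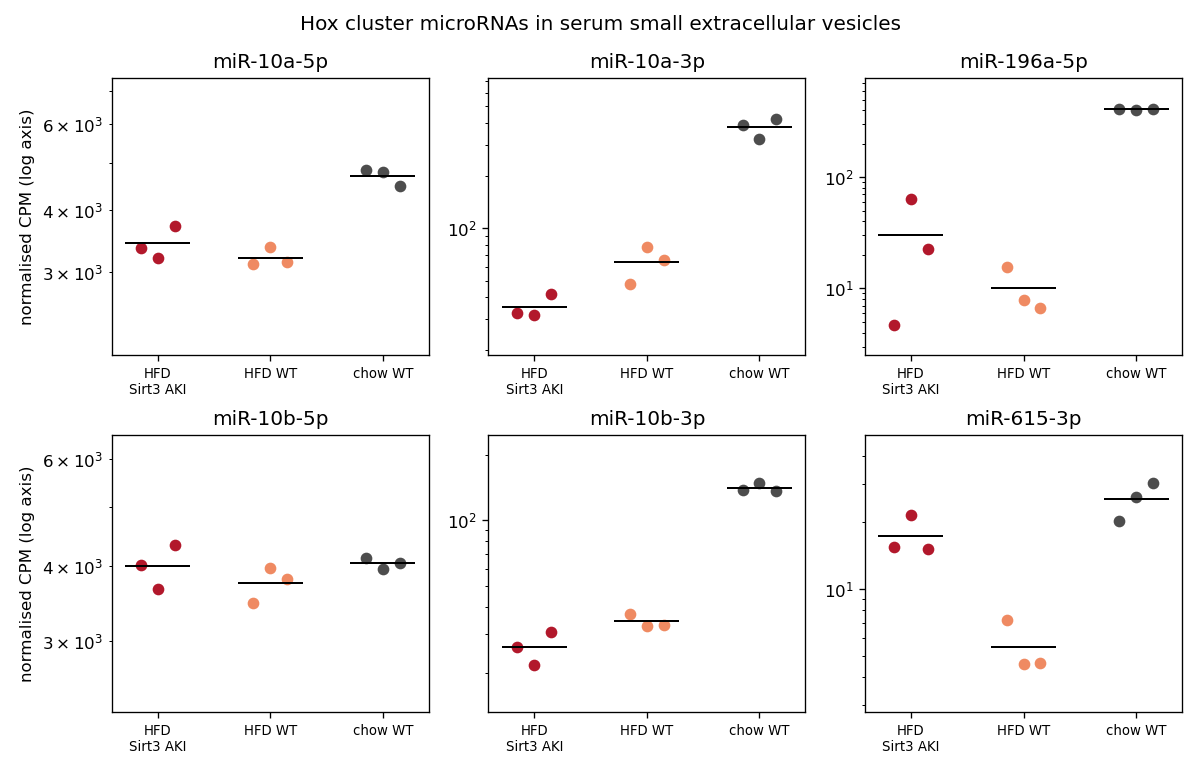
Normalised CPM (log axis) of each member by group, with 1 point per library and a line at the mean of 3 libraries. Chow WT libraries lie above all HFD WT libraries for 5 members, and for miR-10b-5p all 9 libraries lie between 3472 and 4334 normalised CPM with the groups overlapping. The share of all tested microRNAs without overlap was not counted, so the 5 members cannot be set against it. Calls are another measure. In HFD WT over chow WT 37.7% of all tested microRNAs were called in either direction, and 16.2% were called lower.

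The guide arm of the Hoxb locus, miR-10a-5p, had 3108, 3369 and 3141 normalised CPM in the HFD WT libraries and 4843, 4793 and 4482 in those of chow WT. All 3 HFD WT libraries were below all 3 of chow WT. Its log2 fold change was -0.55 (SE 0.11, edgeR adjusted p = 0.00182). The call was lost with no filter on low counts (-0.34, edgeR adjusted p = 0.207). The guide arm of the Hoxd locus, miR-10b-5p, had 3472, 3962 and 3811 normalised CPM in HFD WT and 4127, 3954 and 4051 in chow WT, and the groups overlapped. It was not called (log2 fold change -0.11, SE 0.11, edgeR adjusted p = 0.482). With library totals it was called lower (-0.84, edgeR adjusted p = 3.68e-05), so its place depends on the scaling.

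The ratio of these 5p arms within a library does not depend on scaling. There were 0.895, 0.850 and 0.824 reads of miR-10a-5p per read of miR-10b-5p in HFD WT, against 1.17, 1.21 and 1.11 in chow WT. The Hoxb product thus had the fewer reads of the pair in every HFD WT library and the more reads in every chow WT library. The log2 ratio differed by -0.44, with group SDs of 0.060 in HFD WT and 0.067 in chow WT (two-sided exact permutation p = 0.1, the smallest that 3 against 3 allows, and 0.167 after Benjamini-Hochberg adjustment over 10 such tests).

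The 3p arms fell by more. In miR-10a-3p the HFD WT libraries had 47.8, 78.1 and 65.7 normalised CPM, and those of chow WT had 393, 326 and 424. The log2 fold change was -2.58 (SE 0.23, edgeR adjusted p = 9.37e-06). In miR-10b-3p the HFD WT libraries had 37.2, 32.6 and 33.2 normalised CPM, and those of chow WT had 138, 149 and 137. Its log2 fold change was -2.04 (SE 0.22, edgeR adjusted p = 3.21e-05). Neither arm's groups overlapped, and both calls were kept in all 19 alternatives tried.

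miR-196a-5p had the largest change of the members. It stood at 15.6, 7.81 and 6.63 normalised CPM in HFD WT, from 28, 12 and 10 reads. In chow WT it stood at 413, 404 and 407 normalised CPM, from 162, 155 and 122 reads. The chow WT libraries were nearly equal (coefficient of variation 1.07%), and the groups lay far apart. That spread is smaller than the counting error of so few reads, so it does not measure how well the libraries repeat. Its log2 fold change was -5.32 (SE 0.75, edgeR adjusted p = 2.26e-04).

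miR-196b-5p, which shares the seed of miR-196a-5p and comes from the Hoxa cluster, did not follow it. It had 72.8, 44.3 and 75.0 normalised CPM in HFD WT and 84.1, 91.3 and 107 in chow WT, without overlap, and was not called (log2 fold change -0.55, SE 0.26, edgeR adjusted p = 0.126). It was called lower with library totals (-1.27, edgeR adjusted p = 0.00629). The ratio of the miR-196 pair tests their difference without any scaling. There were 0.214, 0.176 and 0.0885 reads of miR-196a-5p per read of miR-196b-5p in HFD WT, against 4.91, 4.43 and 3.81 in chow WT. The log2 ratio differed by -4.87 without overlap (two-sided exact permutation p = 0.1, adjusted 0.167 over the same 10 tests).

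miR-615-3p, from the Hoxc5 intron, was the scarcest member. It had 13, 7 and 7 reads in HFD WT, or 7.23, 4.56 and 4.64 normalised CPM, and 8, 10 and 9 reads in chow WT, or 20.4, 26.1 and 30.1 normalised CPM. The groups did not overlap, and the log2 fold change was -2.18 (SE 0.39, edgeR adjusted p = 0.00122). Its call was kept in all 19 alternatives, but the level in either group rests on 27 reads.

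Marker lists moved between the same groups, and their part in these results was not tested. Shares of counts are over plain library totals, whereas the calls use the TMM scaling, and these need not point the same way. Of the 7 erythroid microRNAs 4 rose and 1 fell, and the list held 40.5 to 42.9% of counts in HFD WT and 30.9 to 32.6% in chow WT. Of the 4 hepatocyte microRNAs 1 fell and none rose, and they held 0.577 to 0.650% in HFD WT and 1.49 to 1.83% in chow WT. Of the 6 stromal and smooth muscle microRNAs 2 rose and 1 fell, although their share was 0.550 to 0.599% in HFD WT and 0.846 to 0.993% in chow WT. Both endothelial microRNAs rose, with 3.05 to 3.30% in HFD WT and 2.60 to 3.08% in chow WT. Of the 3 striated muscle microRNAs 2 rose and none fell, with 0.773 to 0.945% in HFD WT and 0.880 to 0.989% in chow WT. Of the 5 usual serum microRNAs 3 rose and none fell. This list shares miR-16-5p and miR-451a with the erythroid list, so their shares and calls are not separate. No marker of these lists was at 0 in an HFD WT library, and 1 hepatocyte marker was at 0 in 1 chow WT library.

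**Figure D2:**
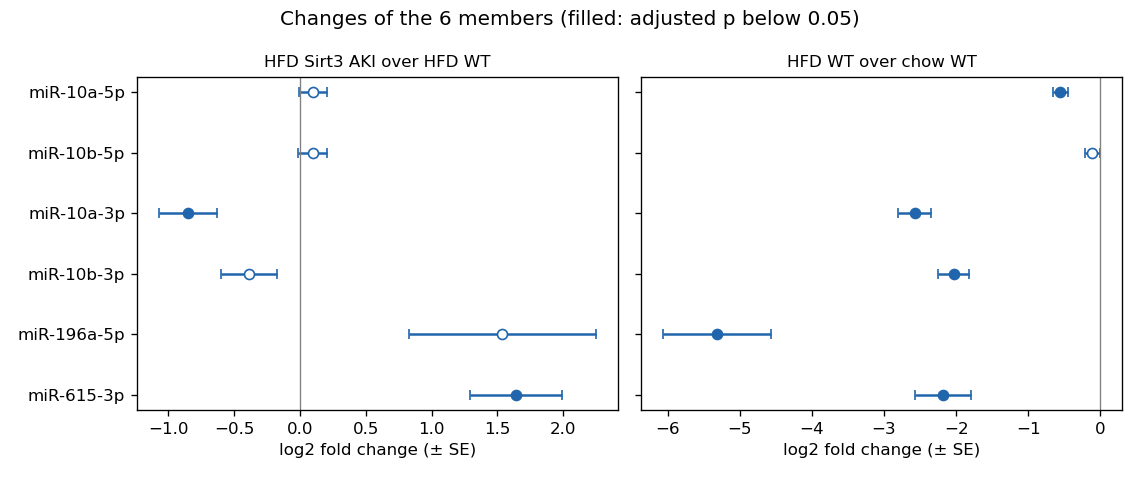
Log2 fold changes with their SE for the 6 members in HFD Sirt3 AKI over HFD WT (left) and HFD WT over chow WT (right), with filled points called at an edgeR adjusted p below 0.05. On the right 5 members are called, all lower, and on the left miR-10a-3p is called lower and miR-615-3p higher.

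HFD Sirt3 AKI was set against HFD WT for the effect of adipose Sirt3, a mitochondrial deacetylase, on the same diet, as the groups are labelled. Of the 6 members miR-615-3p rose, miR-10a-3p fell and 4 were not called, against 8.94% of all tested microRNAs called in either direction. The median log2 fold change was 0.0957 for the members and -0.0213 for all tested microRNAs. The calls over all microRNAs were 6 higher and 31 lower. They were 36 higher and 11 lower with library totals, and 10 and 14 with DESeq2 size factors. Each comparison uses the HFD WT libraries, so their changes are not independent of each other.

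Neither miR-10 guide arm was called. miR-10a-5p had 3360, 3198 and 3723 normalised CPM in the HFD Sirt3 AKI libraries against 3108, 3369 and 3141 in HFD WT (log2 fold change 0.096, SE 0.11, edgeR adjusted p = 0.614). miR-10b-5p had 4010, 3668 and 4334 in HFD Sirt3 AKI against 3472, 3962 and 3811 in HFD WT (0.095, SE 0.11, edgeR adjusted p = 0.622). Both overlapped between groups, and both were called higher with library totals (0.40 for each, edgeR adjusted p = 0.0195 and 0.0159). Their ratio was 0.838, 0.872 and 0.859 reads of miR-10a-5p per read of miR-10b-5p in HFD Sirt3 AKI, inside the range of 0.824 to 0.895 in HFD WT. The mean log2 ratio was -0.22 in both groups (two-sided exact permutation p = 1).

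The 3p arm of miR-10a had 32.4, 31.7 and 41.9 normalised CPM in HFD Sirt3 AKI against 47.8, 78.1 and 65.7 in HFD WT, without overlap. Its log2 fold change was -0.85 (SE 0.22, edgeR adjusted p = 0.0382). This call was lost in 13 of 19 alternatives, though the direction held in all of them. Among these were library totals (-0.54, edgeR adjusted p = 0.102) and DESeq2 size factors (-0.75, edgeR adjusted p = 0.0611). In the larger batch alone, which keeps 1 HFD Sirt3 AKI library assumed to vary like the others, it was -0.83 (edgeR adjusted p = 0.0878), and with the batch label as a term it was -0.97 (edgeR adjusted p = 0.205). Leaving out single libraries gave edgeR adjusted p = 0.0777, 0.0672 and 0.0766 without chow WT replicates 1, 2 and 3. It gave 0.180 and 0.150 without HFD WT replicates 2 and 3, and 0.0568 without HFD Sirt3 AKI replicate 3. The 3p arm of miR-10b had 26.3, 21.7 and 30.9 normalised CPM in HFD Sirt3 AKI against 37.2, 32.6 and 33.2 in HFD WT, and was not called (-0.38, SE 0.21, edgeR adjusted p = 0.278).

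miR-615-3p had 43, 41 and 29 reads in HFD Sirt3 AKI, or 15.5, 21.7 and 15.2 normalised CPM, against 13, 7 and 7 reads in HFD WT, or 7.23, 4.56 and 4.64 normalised CPM. Every HFD Sirt3 AKI library was above every HFD WT library. The log2 fold change was 1.64 (SE 0.35, edgeR adjusted p = 0.0139), a fold of 3.12. Its mean was 17.4 ± 3.67 normalised CPM in HFD Sirt3 AKI, 5.48 ± 1.52 in HFD WT and 25.5 ± 4.86 in chow WT (SD, n = 3). The call was lost in 5 alternatives: without HFD WT replicate 2 (1.54, edgeR adjusted p = 0.0682), without HFD WT replicate 3 (1.56, 0.0829), in the larger batch (1.60, 0.0878), with the batch label as a term (1.47, 0.205) and in a fit of only these groups (1.78, 0.0557).

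miR-196a-5p varied most between the HFD Sirt3 AKI libraries. Replicates 1, 2 and 3 had 13, 120 and 43 reads, or 4.68, 63.4 and 22.5 normalised CPM, against 15.6, 7.81 and 6.63 normalised CPM in HFD WT. Replicate 1 was below all HFD WT libraries and replicates 2 and 3, of the other batch label, were above them. The log2 fold change of 1.54 (SE 0.71) was not called (edgeR adjusted p = 0.191). It turned to -0.98 in the larger batch (edgeR adjusted p = 0.286) and to -1.11 with the batch label as a term (edgeR adjusted p = 0.487). It was called higher without HFD Sirt3 AKI replicate 1 (2.07, edgeR adjusted p = 0.00346) and without a filter, and was 0.33 without replicate 2 (edgeR adjusted p = 0.724). miR-196b-5p had 53.3, 75.6 and 62.3 normalised CPM in HFD Sirt3 AKI against 72.8, 44.3 and 75.0 in HFD WT, and was not called (edgeR adjusted p = 0.994).

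HFD Sirt3 AKI replicate 2 had the most miR-196a-5p of that group. It also had the highest share of the hepatocyte, stromal, striated muscle and endothelial lists. Its share of the erythroid and usual serum lists, which have microRNAs in common, was the lowest of the group. The part of these lists in the result was not tested. The hepatocyte list held 0.868, 3.48 and 1.40% of counts in HFD Sirt3 AKI replicates 1, 2 and 3, against 0.577 to 0.650% in HFD WT. Stromal and smooth muscle microRNAs held 0.644, 1.73 and 0.766% in HFD Sirt3 AKI, against 0.550 to 0.599% in HFD WT. Striated muscle microRNAs held 0.722, 1.27 and 0.813% in HFD Sirt3 AKI, against 0.773 to 0.945% in HFD WT. Endothelial microRNAs held 2.643, 3.045 and 2.46%, against 3.051 to 3.298% in HFD WT. Erythroid microRNAs held 41.7, 33.3 and 40.1% in HFD Sirt3 AKI, against 40.5 to 42.9% in HFD WT. Usual serum microRNAs held 28.5, 21.6 and 24.2%, against 27.7 to 30.7% in HFD WT. With the TMM scaling 1 of 4 hepatocyte microRNAs rose, while 3 of 7 erythroid, both endothelial and 2 of 5 usual serum microRNAs fell. None of the 6 stromal or 3 striated muscle microRNAs was called.

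The 3p to 5p arm ratio compares products of 1 hairpin, and it does not change with scaling. Of the reads of miR-10a, 0.955, 0.982 and 1.11% came from the 3p arm in HFD Sirt3 AKI, 1.52, 2.27 and 2.05% in HFD WT, and 7.50, 6.37 and 8.65% in chow WT. The 95% exact Clopper-Pearson intervals lay within 0.750 to 1.38% in HFD Sirt3 AKI, 1.21 to 2.71% in HFD WT and 5.33 to 10.2% in chow WT, and they cover counting error only. Of the reads of miR-10b, 0.651, 0.588 and 0.707% came from the 3p arm in HFD Sirt3 AKI, 1.06, 0.815 and 0.863% in HFD WT, and 3.23, 3.62 and 3.27% in chow WT. Its intervals lay within 0.422 to 0.911% in HFD Sirt3 AKI, 0.606 to 1.35% in HFD WT and 2.36 to 4.67% in chow WT. For both precursors the intervals of HFD Sirt3 AKI and HFD WT thus overlapped in part, and those of chow WT overlapped neither.

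**Figure D3:**
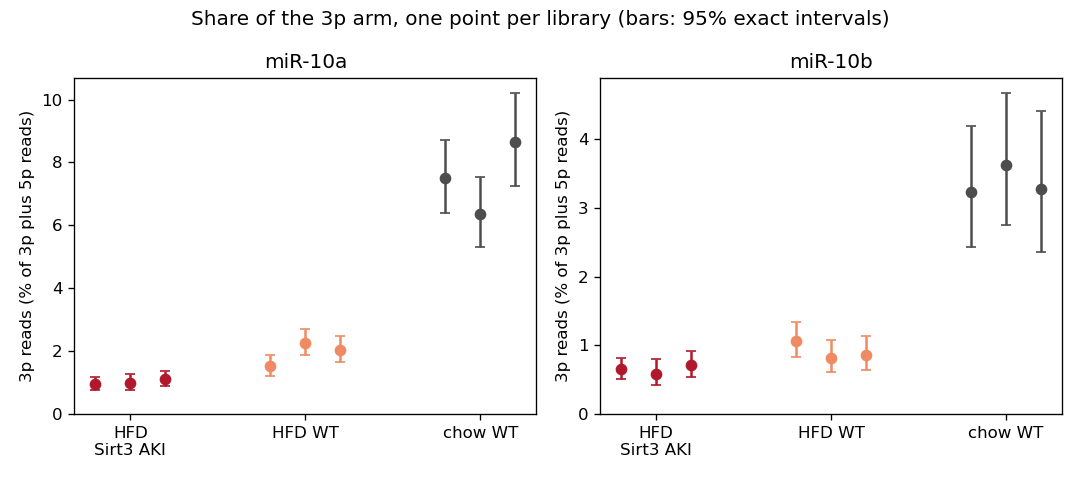
Share of 3p reads among the reads of both arms for miR-10a and miR-10b, 1 point per library with a 95% exact interval of its counts. Chow WT libraries lie at 6.37 to 8.65% for miR-10a and 3.23 to 3.62% for miR-10b, above every library of both high fat diet groups.

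Per read of the 3p arm of miR-10a there were 97.8 ± 7.82 reads of the 5p arm in HFD Sirt3 AKI, 52.0 ± 11.5 in HFD WT and 12.5 ± 2.07 in chow WT (SD, n = 3). For miR-10b these were 154 ± 14.5 in HFD Sirt3 AKI, 110 ± 14.9 in HFD WT and 28.7 ± 1.85 in chow WT. In HFD WT over chow WT the log2 ratio of 3p to 5p changed by -2.04 in miR-10a (SE 0.23, limma adjusted p = 4.39e-04) and by -1.93 in miR-10b (SE 0.19, limma adjusted p = 2.37e-04). Both were called, among 103 precursors with both arms tested, of which 35% were called in either direction and 15.5% were called lower. They had the fourth and the fifth lowest change of the 103, and both calls were kept in all 11 alternatives tried. The exact permutation p of each was 0.1 (two-sided, the smallest possible).

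In HFD Sirt3 AKI over HFD WT the point values of the ratio were lower in both precursors, without overlap between libraries of the groups. Neither was called. The share of the 103 precursors without such overlap was not counted, so the separation cannot be set against it. The change was -0.93 in miR-10a (SE 0.23, limma adjusted p = 0.0664) and -0.49 in miR-10b (SE 0.19, limma adjusted p = 0.255). None of the 103 precursors was called (0%), while 18 had an unadjusted p below 0.05. The exact permutation p was 0.1 for each (two-sided, adjusted 0.167 over 10 tests).

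**Figure D4:**
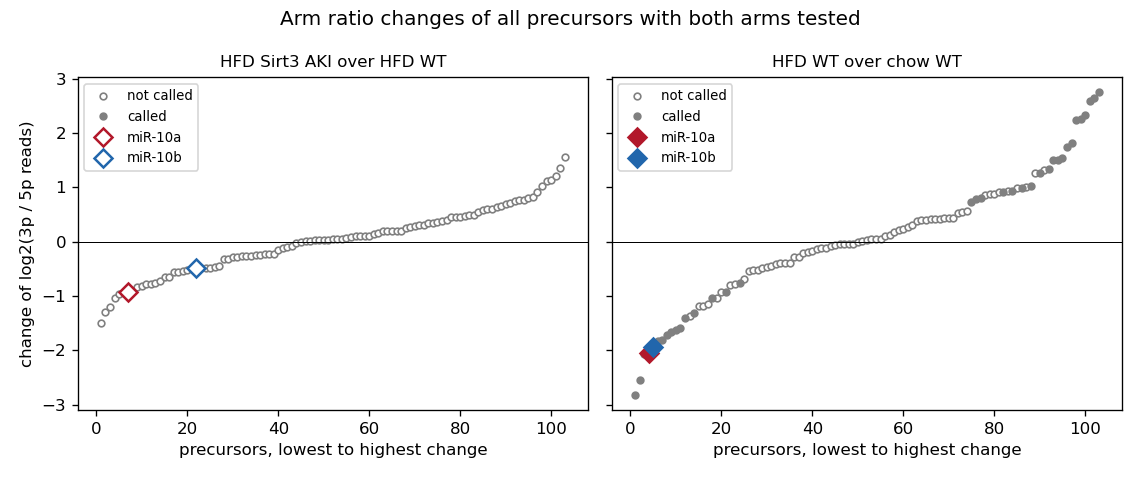
Change of the log2 ratio of 3p to 5p reads for 103 precursors, ordered from lowest to highest, in HFD Sirt3 AKI over HFD WT (left) and HFD WT over chow WT (right), with filled points called by limma. On the right miR-10a and miR-10b sit at -2.04 and -1.93, and on the left at -0.93 and -0.49 with no precursor called.

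The less abundant arm was the one that lost ground in 22 of the 36 precursors called in HFD WT over chow WT, and gained in 14. Its median change over the 103 precursors was -0.375, against -2.04 and -1.93 in miR-10a and miR-10b. The less abundant arm was set by the mean log2 ratio over all 9 libraries, those compared included. An arm that fell on the diet was thus more likely to be labelled so, and these values are a description only. The ratio of the 3p arms to each other, miR-10a-3p over miR-10b-3p, differed by -0.56 in HFD WT over chow WT on the log2 scale (two-sided exact permutation p = 0.2). Between HFD Sirt3 AKI and HFD WT it differed by -0.44 (two-sided exact permutation p = 0.3), and the groups overlapped in both comparisons.

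Raw counts of the members followed the depth of the libraries unequally. The summed total of HFD WT was 7.45 times that of chow WT. Summed reads in HFD WT were 3.05 and 4.16 times those in chow WT for miR-10a-5p and miR-10b-5p. For miR-10b-3p they were 1.10 times, with 67, 50 and 50 reads in HFD WT and 54, 57 and 41 in chow WT. For miR-615-3p they were equal, at 27 reads in each group. They were lower in the deeper HFD WT libraries for miR-10a-3p, at 305 reads against 406 in chow WT, and for miR-196a-5p, at 50 reads against 439. Of the 414 tested microRNAs 30 had no more reads in HFD WT than in chow WT, 3 of them members.

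**Figure D5:**
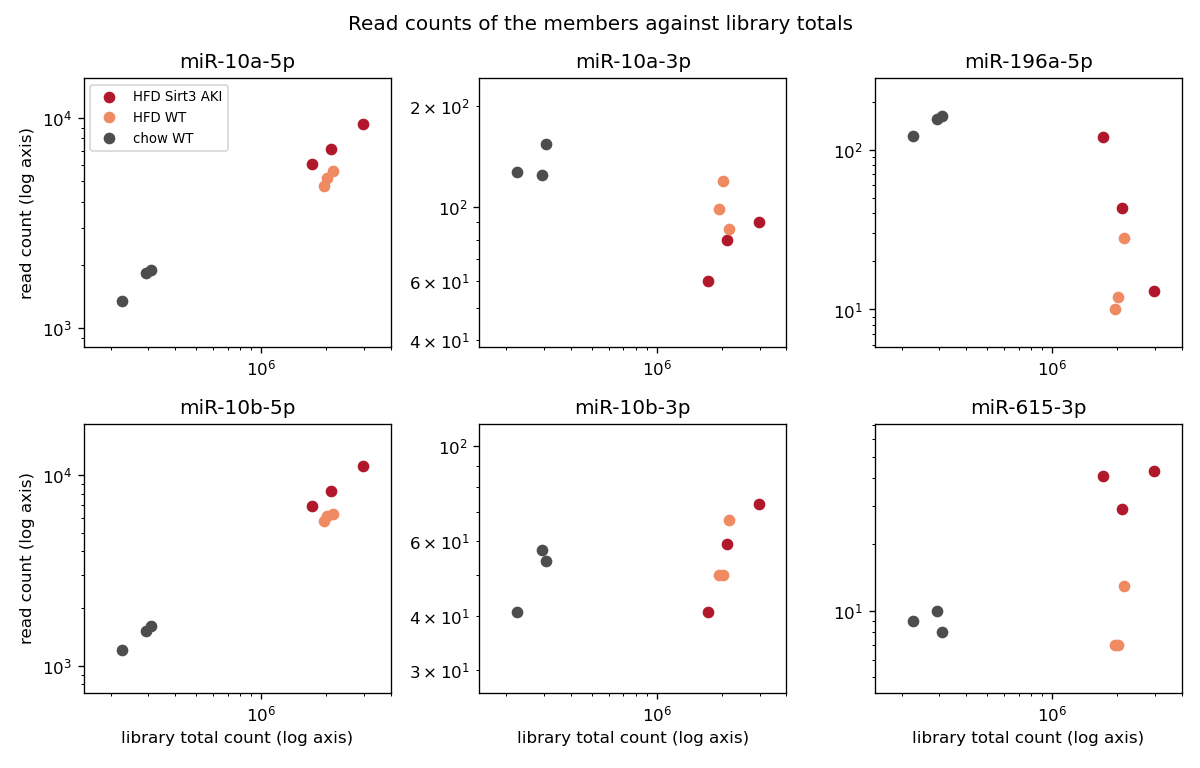
Read counts of each member against the library total, both on log axes, with 1 point per library. Both 5p arms of miR-10 rise with the total, whereas miR-10b-3p stays between 41 and 73 reads and miR-196a-5p is highest in the shallow chow WT libraries.

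The other arms of the same precursors were too scarce to test. Over the 3 libraries of a group, miR-615-5p had 5 reads in HFD Sirt3 AKI, 1 in HFD WT and 6 in chow WT. The 3p arm of Mir196a-1 had 4, 5 and 7 reads in the same groups, that of Mir196a-2 had 1, 0 and 7, and that of Mir196b had 0, 0 and 1. The chow WT libraries thus held more reads of each despite their lower depth.

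The miR-99 and miR-100 microRNAs descend from the same ancestor as miR-10 but lie outside the Hox clusters and carry another seed. Of the 3 tested, miR-99b-5p rose in HFD WT over chow WT (log2 fold change 1.51, SE 0.14, edgeR adjusted p = 1.52e-05). In the same comparison miR-100-5p fell (-0.48, SE 0.15, edgeR adjusted p = 0.0294), and miR-99a-5p was not called (0.13, edgeR adjusted p = 0.542). With library totals miR-99a-5p was called lower (-0.60, edgeR adjusted p = 0.0166). The decrease of miR-100-5p was lost in 7 of 19 alternatives. In HFD Sirt3 AKI over HFD WT miR-99a-5p rose (0.62, SE 0.15, edgeR adjusted p = 0.0319), a call lost in 8 alternatives, and miR-99b-5p and miR-100-5p were not called (0.30 and 0.41, edgeR adjusted p = 0.188 and 0.110). These were called higher in 4 and 5 of 19 alternatives, among them library totals (0.62 and 0.73, edgeR adjusted p = 0.0324 and 0.0259) and DESeq2 (0.39 and 0.51, DESeq2 adjusted p = 0.0417 and 0.0222). For miR-100-5p they included the fit without HFD Sirt3 AKI replicate 1 (0.51, edgeR adjusted p = 0.0423). For miR-100-5p the lost calls included those without chow WT replicate 1, 2 or 3 (adjusted p = 0.0881, 0.0657 and 0.107), HFD WT replicate 1 or 3 (0.129 and 0.110) and HFD Sirt3 AKI replicate 3 (0.0601). For miR-99a-5p they included those without chow WT replicate 1 or 2 (adjusted p = 0.0542 and 0.0659), HFD WT replicate 1 or 3 (0.112 and 0.150) and HFD Sirt3 AKI replicate 3 (0.104). Its call was also lost with the batch label as a term (0.38, edgeR adjusted p = 0.419) and in the larger batch (0.53). The same held in a fit of only the groups compared (0.75, edgeR adjusted p = 0.0557).

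The tested microRNAs most like each member were found by Pearson's r of log2 normalised CPM over the 9 libraries, as a description only, since the libraries share the 3 groups and their depths. The r within the 6 high fat diet libraries is given after each. For miR-10a-3p they were miR-155-5p, which activated macrophages and lymphocytes induce, miR-10b-3p and miR-5126 (r = 0.987, 0.978 and 0.969, within the diet 0.890, 0.706 and 0.360). For miR-10b-3p they were miR-155-5p and the predicted 15_11735 and 5_24224 (0.983, 0.982 and 0.982), the first with 0.650 within the diet. The predicted pair has the same counts in every library and 0 reads in each high fat diet library, so it gives no r there that can be read. The likeness of the 3p arms to the named microRNAs was thus lower within the diet. The same held for miR-10a-5p and miR-196a-5p below, so it was not particular to the 3p arms. For miR-10a-5p they were miR-6538, the predicted 15_11567 and miR-378a-5p (0.986, 0.985 and 0.982, within the diet 0.962, 0.863 and 0.771). For miR-10b-5p they were miR-181d-5p, miR-362-5p and miR-181a-5p (0.847, 0.749 and 0.670, within the diet 0.852, 0.723 and 0.668). For miR-196a-5p they were miR-365-3p, miR-6240 and miR-2137 (0.980, 0.979 and 0.977, within the diet 0.883, 0.858 and 0.884). For miR-615-3p they were miR-200c-3p, which is epithelial, miR-143-5p and miR-344-3p (0.913, 0.896 and 0.885, within the diet 0.841, 0.803 and 0.910).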

How the data were processed

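The authors deposited whole-number read counts per mature microRNA and a TPM table, whose deposited TPM values matched each count over its library total on the TPM scale within 5e-05, with no length term. Bowtie 0.12.2 and the build mm8 are named without a role, per the submitters' processing notes, and the sources used here do not give the trimming, microRNA reference or counting program. Counts of all 1169 microRNAs passed through filterByExpr with a minimum count of 10 and trimmed mean of M values (TMM) scaling, and were fitted with group means over 9 libraries in edgeR 4.0.16 (R 4.3.3), with Benjamini-Hochberg adjustment over 414 microRNAs. Standard errors are the log2 fold change over the root of the F statistic. Arm ratios, log2 of 3p over 5p reads with 0.5 added to each, were tested with limma 3.58.1 over 103 precursors, and single ratios by two-sided exact permutation. The ratios of miR-196a-5p to miR-196b-5p and between the 3p arms were added after their values were seen. Alternatives used DESeq2 1.42.0 and limma on log2(TPM + 1) or log2(TPM + 10). The steps that use edgeR or limma were also tested on simulated data. Named microRNAs were the members, other Hox cluster arms, the miR-99 and miR-100 relatives, and the 3 most alike per member. Members and lists were chosen with earlier results of these data known. Sequences and positions come from RefSeq on GRCm38.p6 and Hox gene positions from GENCODE M21 on GRCm38. No coordinates of the authors' build were used.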

Additional observations from a re-analysis of the deposited data

How the results depend on the processing

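In HFD WT over chow WT all 5 called members kept direction and call in 19 alternatives, except miR-10a-5p with no filter. The uncalled miR-10b-5p turned to 0.10 with no filter and lay between -0.14 and 0.0088 when 1 library was dropped, above 0 only without replicate 2 of HFD Sirt3 AKI. Its relative miR-99a-5p turned to -0.60 with library totals and with limma on log2(TPM + 1) or log2(TPM + 10). There it was called lower (edgeR adjusted p = 0.0166, limma adjusted p = 0.0135 and 0.0129), so its place depends on the scaling. The arm ratios ranged from -2.16 to -1.87 (miR-10a) and -2.04 to -1.85 (miR-10b). In HFD Sirt3 AKI over HFD WT calls moved more. The 37 changed microRNAs became 24 with DESeq2 size factors, 65 with DESeq2, 3 in a fit of only the groups compared, 1 with the batch label as a term, 23 in the larger batch, and 13 (without HFD WT replicate 3) to 102 (without replicate 1 of HFD Sirt3 AKI) with 1 library dropped. The 2 changed members became 1 with DESeq2 size factors, 0 in a fit of only the groups compared, 0 with the batch label, 0 in the larger batch, and 0 to 3 with 1 library dropped. The log2 change of miR-196a-5p turned to -0.98 in the larger batch and -1.11 with the batch label. The miR-10a-5p to miR-10b-5p ratio, at 2.03e-05, turned to -0.031 in the larger batch and with the batch label, and lay between -0.027 and 0.032 without single libraries. The cause of these shifts was not tested. Replicate numbers did not pair the libraries (correlations of same-numbered deviations from -0.080 to 0.19). With the replicate block 154 and 31 microRNAs changed, in the order above, and the same members were called. Of the members miR-615-3p rests on the fewest reads, at 27 in HFD WT and 27 in chow WT.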
